A study of Caenorhabditis elegans with 28 samples.

Results

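The regions described here are autosomal stretches of the Caenorhabditis elegans genome where both LAG-1 and Notch had a chromatin immunoprecipitation peak and no control library did. Peaks of 14 immunoprecipitation libraries were merged where they overlapped by at least 1 bp. The regions were chosen by the presence of peaks. At least 1 of 4 LAG-1 libraries and at least 1 of 4 Notch libraries had to hold one, and 0 of 6 control libraries. The rule gave 244 shared regions among 20839 autosomal and 24961 merged regions in all. Another 2011 autosomal regions without a control peak held LAG-1 peaks alone, and 6938 held Notch peaks alone. Because of this choice, counts of libraries and presence are descriptions here, and no test was made on them.

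All libraries came from whole L4 larvae grown at 20 °C. The LAG-1 libraries (a, b, c and e) came from strain pJK1689, with a tag at the N terminus of LAG-1. The Notch libraries (a, b, c and d) came from strain pJK1662, with a tag at the C terminus of GLP-1, and carry the name nicd. The controls, 3 titled Flag and 3 titled Myc, came from strain pJK1728, which carries tagged GFP. The labels name a Myc antibody for both targets and a Flag antibody for all 6 controls, so that the titles and antibodies of the Myc controls are at odds. The promoter of each transgene is not given in the sources used here. Whole animals mix germline and soma, so a region bound in few cells and one bound weakly in many cannot be told apart. Libraries held 3.13 to 19.8 M tags, and the lists held 44 to 8261 peaks. Notch c, Myc control a and Myc control c had the longest lists, at 8261, 8078 and 5824 peaks. Notch c and Myc control c were also the shallowest libraries, at 4.58 and 3.13 M tags.

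Notch receptors are cleaved when a neighbouring cell presents a ligand, and the freed intracellular domain moves to the nucleus. It does not bind DNA by itself but joins a DNA-binding protein of the CSL family, which in C. elegans is LAG-1, to activate transcription. GLP-1 is the Notch receptor that keeps germline stem cells in the distal gonad from entering meiosis. Sites where both proteins are found are therefore candidates for direct contact of the pathway with DNA. Positions below are those of genome build ce10. No gene was assigned to any region, since the gene table at hand follows a different assembly from the peaks.

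Most shared regions were found in a single library of at least 1 protein. Of the 244, 120 had a peak in exactly 1 library of each protein, 61 in 2 LAG-1 and 1 Notch library, 30 in 3 and 1, and 20 in 4 and 1. Only 11 had peaks in at least 2 libraries of both proteins, and 5 of these in at least 3 of both. LAG-1 support was wider than Notch support, with 122 regions held by at least 2 LAG-1 libraries and 13 by at least 2 Notch libraries. The 244 are 10.8% of the autosomal LAG-1 regions without a control peak and 3.4% of the Notch regions without one.

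**Figure D1:**
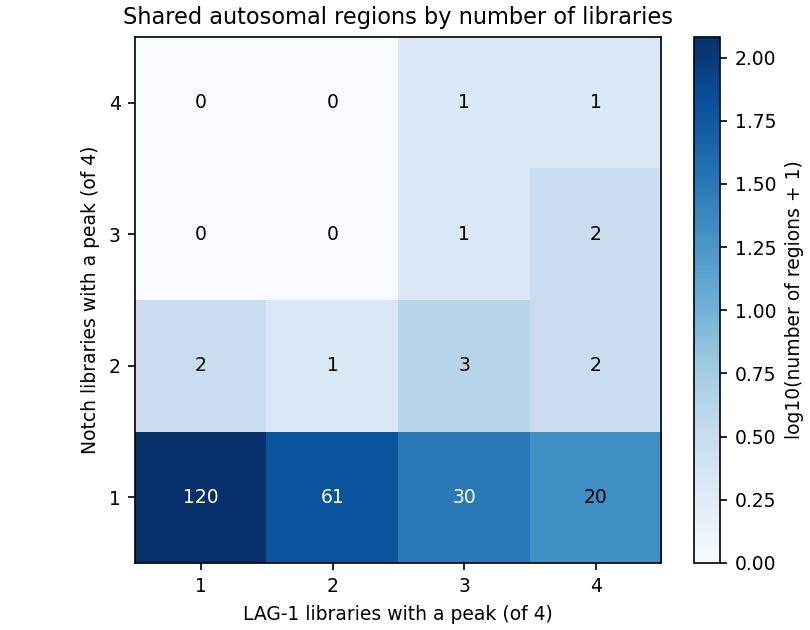
Number of shared autosomal regions by the number of LAG-1 libraries (horizontal axis) and Notch libraries (vertical axis) with a peak; each square gives the count and its colour the log10 of the count plus 1. The bottom row, with 1 Notch library, holds 231 of the 244 regions, and 11 lie in at least 2 libraries of each protein.

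The 11 regions in at least 2 libraries of both proteins are called S1 to S11 here, ordered by number of libraries. They lay on all 5 autosomes, with 4 on I, 3 on IV, 2 on III and 1 each on II and V. Every one had a peak in LAG-1 b and LAG-1 e, 10 had one in LAG-1 a, and 5 in LAG-1 c. Among Notch libraries, 9 had a peak in Notch c, 8 in Notch d, 7 in Notch b and 5 in Notch a. Values below are the fold over input of the peak, as the authors' caller gave it in each list. A fold ranks peaks within a list and does not measure a difference between lists.

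S1, at chrIV:16656221-16656635, was the only shared region with a peak in all 8 libraries of both proteins. Its folds in LAG-1 a, b, c and e were 15.8, 21.1, 8.82 and 22.8. In Notch a, b, c and d they were 5.92, 9.5, 6.48 and 9.87. The mean was 17.1 ± 6.28 for LAG-1 and 7.94 ± 2.03 for Notch (SD, n = 4 each), with LAG-1 c the lowest LAG-1 library and Notch a the lowest Notch library. The peak ranked high in both short Notch lists, 7th of 44 in Notch b and 8th of 302 in Notch d, and 2283rd of 8261 in Notch c. The mean centres of the LAG-1 and Notch peaks were 29.3 bp apart.

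S2, at chrI:10588173-10588509, had the highest folds among the 11. They were 47.4, 54.8, 23.3 and 80.2 in LAG-1 a, b, c and e. In Notch b, c and d they were 31.1, 34.4 and 46.1, and Notch a had no peak. S2 ranked 2nd in LAG-1 b and e, 3rd in LAG-1 c and Notch d, and 13th among the 8261 peaks of Notch c. It was the only one of the 11 with folds above 20 for Notch, and it also lay closest to a control peak, 643 bp from one of Myc control c.

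S3, at chrI:2639643-2640018, was uneven between Notch libraries. Its LAG-1 folds were 15.5, 14.7, 5.78 and 15.0 in a, b, c and e. Its Notch folds were 4.29, 18.6 and 4.82 in a, c and d. The Notch mean of 9.22 ± 8.08 (SD, n = 3) thus rested on Notch c, and the Notch a and d peaks lay near the 4-fold minimum of the caller.

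S4, at chrIII:9565839-9566243, was the other region with all 4 Notch libraries. Its folds were 4.31, 7.54, 10.1 and 4.1 in Notch a to d. In LAG-1 a, b and e they were 7.58, 13.5 and 11.4. Notch c gave the highest Notch fold, with Notch a and d near the 4-fold minimum, and the 2 proteins' mean centres were 2.58 bp apart, the closest of the 11. S5, at chrII:4047865-4048223, had LAG-1 folds of 9.21, 11.4 and 17.9 in a, b and e and Notch folds of 4.75, 4 and 5.74 in a, b and c. LAG-1 e was the highest LAG-1 library at S5, and the Notch b peak, at the 4-fold minimum, was 43rd of 44 in its list.

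S6, at chrIV:4660349-4660715, had all 4 LAG-1 libraries, at 9.65, 10.1, 7.76 and 17.2, and Notch b and d at 4.24 and 5.2. S7, at chrI:506163-506511, also had all 4, at 6.57, 13.5, 6.06 and 9.13, with Notch b and c at 4.25 and 10.9. LAG-1 e was highest at S6 and LAG-1 b at S7, and LAG-1 c was lowest at both. S8, at chrIV:7958197-7958655, reached 9.8, 20.01 and 25.6 in LAG-1 a, b and e, against 4.56 and 6.03 in Notch c and d. S9, at chrIII:13464187-13464700, reached 7.05, 15.0 and 22.7 in the same LAG-1 libraries, against 4.44 and 6.99 in Notch a and c. At both, LAG-1 e was the highest and LAG-1 a the lowest of the LAG-1 libraries.

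S10, at chrI:128113-128539, had 4.18, 7.28 and 13.6 in LAG-1 a, b and e and 4.88 and 5.33 in Notch c and d. S11, at chrV:3686247-3686682, had 7.32 and 7.31 in LAG-1 b and e and 4.64 and 5.28 in Notch b and d. It was the only one of the 11 with just 2 LAG-1 libraries.

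Over the 11 regions, folds ran from 4.18 to 80.2 in LAG-1 lists and from 4 to 46.1 in Notch lists. The normalized tag count of the peak, per 10 M tags, ran from 135 to 2391 in LAG-1 and from 75.1 to 1369 in Notch libraries. The nearest control peak was 643 to 5608 bp away, and S2 was the only one with a control peak within 1 kb.

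**Figure D2:**
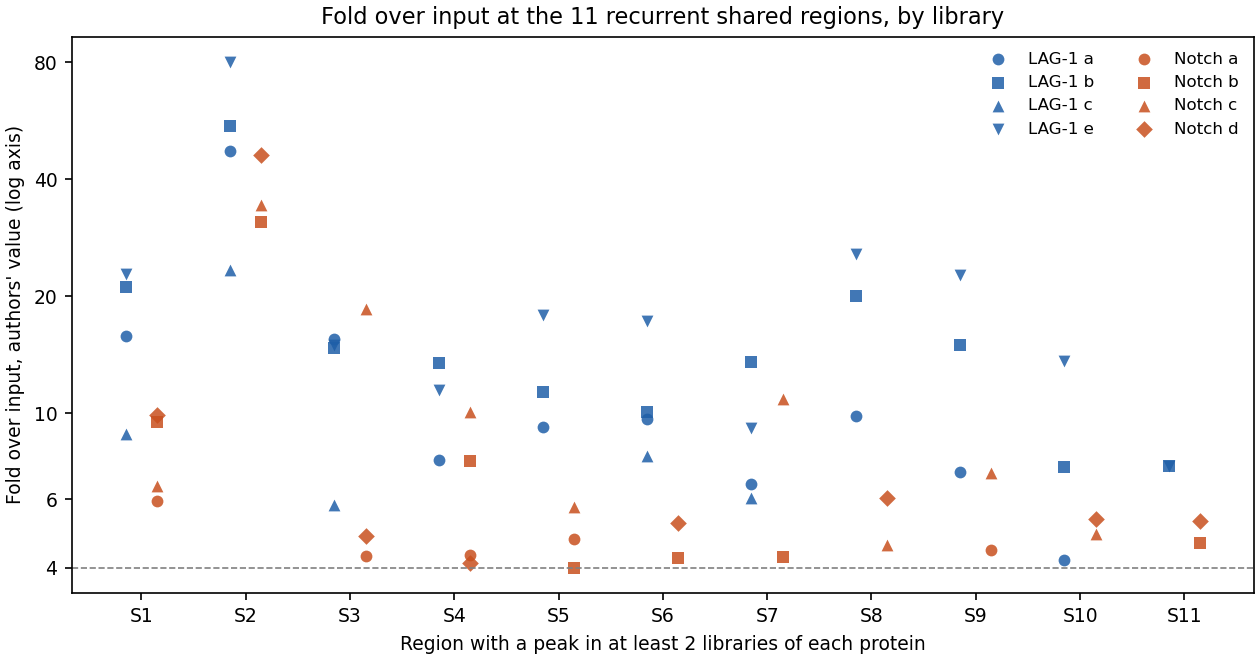
Fold over input (log axis, the authors' value) at S1 to S11, the regions in at least 2 libraries of each protein; each point is 1 library with a peak, blue for LAG-1 and orange for Notch, and the dashed line is the 4-fold minimum of the caller. LAG-1 points reach 80.2 at S2, and the Notch points outside S1, S2, S3, S4 and S7 lie between 4 and 7.

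LAG-1 e held the highest LAG-1 fold at 7 of the 11, and LAG-1 c held the lowest at all 5 where it had a peak. The same order was common over the 25 shared regions in all 4 LAG-1 libraries, where LAG-1 e was highest at 18 and LAG-1 c lowest at 18. Median folds at these 25 were 9.32, 10.1, 6.24 and 14.2 in a, b, c and e. How the input was scaled differed between LAG-1 a and b and the other lists, and its part in this order was not tested.

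The count of recurrent regions depended on single libraries. Without Notch c, 52 shared regions remained by the same rule, 7 in at least 2 and 2 in at least 3 libraries of each protein. Without Notch d, 7 were in at least 2 of each. The count in at least 3 of each fell from 5 to 3 without LAG-1 a, b or e or without Notch a, b or d, with 3 libraries still required.

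A larger set had wide LAG-1 support and a single Notch peak. The 20 regions in all 4 LAG-1 libraries and 1 Notch library had mean LAG-1 folds of 6.29 to 18.2, with a median of 9.53. Their single Notch folds ran from 4.03 to 13.4, with a median of 4.95, and 14 of the 20 Notch peaks came from Notch c. The leading region by mean rank was chrIV:17278232-17278756. It had folds of 14.1, 21.8, 7.49 and 29.4 in LAG-1 a, b, c and e and 6.69 in Notch c. Its LAG-1 and Notch centres were 187 bp apart, so the peaks met at their flanks rather than at their centres.

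The next was chrV:19642946-19643331, with 12.6, 10.1, 7.68 and 20.6 in LAG-1 a, b, c and e and 7.82 in Notch c. Here the centres were 21.3 bp apart, and a Myc control a peak lay 227 bp away. At chrIV:7389717-7390135, LAG-1 folds were 16.3, 17.6, 6.76 and 17.3, and the Notch peak was that of Notch d, at 4.75. The remaining pair of the 5 leading regions were chrIV:3336655-3337154 and chrIV:796496-797032, each in all 4 LAG-1 libraries. The folds in a, b, c and e were 9.88, 9.31, 6.87 and 14.2 at the first and 24.6, 9.29, 6.46 and 7.6 at the second. Their Notch c peaks, at 9.46 and 6.6, were centred 168 and 212 bp from the LAG-1 peaks.

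Regions in 1 library of each protein made up the largest class. Of these 120, 102 had their Notch peak in Notch c, 14 in Notch a, 4 in Notch d and 0 in Notch b. The LAG-1 peak was that of LAG-1 e in 53, LAG-1 c in 40, LAG-1 b in 23 and LAG-1 a in 4. LAG-1 folds had a median of 5.06 with a range of 4.01 to 65.8, and Notch folds a median of 5.18 with a range of 4.05 to 95.1. A few single folds were therefore high, but most lay close to the 4-fold minimum. The 2 highest did not come with high tag counts. The normalized tag count was 193.3 at the 65.8-fold peak of LAG-1 a, whose median over all shared regions was 202.4. It was 75.1 at the 95.1-fold peak of Notch a, whose median was 82.8.

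By mean rank the leading region of this class was chrII:8421070-8421522, at 19.5 in LAG-1 c and 18.3 in Notch d. Its focus ratio, the caller's measure of how sharply the 2 strands' tags are arranged around the centre, was 0.6 in LAG-1 c, and a Myc control d peak lay 266 bp away. At chrIV:11400129-11400459 the folds were 13.8 in LAG-1 e and 15.03 in Notch c, with centres 25 bp apart and the nearest control peak at 15371 bp. The third, chrI:13160870-13161272, had 10.5 in LAG-1 e and 11.2 in Notch c, and a Myc control c peak only 20 bp away. At chrI:670744-671110 a fold of 65.8 in LAG-1 a stood beside 6.5 in Notch c. At chrIV:11145759-11146182 a fold of 28.2 in LAG-1 e stood beside 4.98 in Notch a. These last regions had peaks of high fold in 1 LAG-1 library that the other 3 did not list.

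The shared regions differed from LAG-1 regions without Notch in how many LAG-1 libraries held them. Of the 244, 122 (50%) were in at least 2 LAG-1 libraries, against 680 of 2011 (33.8%) without Notch and a background of 35.6% over both. In at least 3 LAG-1 libraries were 60 (24.6%), against 272 (13.5%) and a background of 14.7%. For Notch, 13 (5.33%) were in at least 2 libraries, against 34 of 6938 (0.490%) without LAG-1 and a background of 0.654%. No Notch region without LAG-1 and without a control peak was in 3 Notch libraries, while 5 shared regions were.

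Shared regions were also longer, and their part in these shares was not tested. The median length was 395 bp, against 331 bp for LAG-1 alone and 253 bp for Notch alone. Within regions in 1, 2, 3 and 4 LAG-1 libraries the medians were 391.5, 392, 414 and 415 bp with Notch and 317, 357, 378.5 and 396.5 bp without. A merged region is at least as long as its longest peak, and a further peak lengthens it unless it lies inside.

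LAG-1 support was also counted by the Notch library that supplied the peak. Notch c supplied 203 of the 244, and was the sole Notch library in 192 (78.7%). Notch a supplied 33, Notch d 16 and Notch b 12. These were 2.46% of the peaks of Notch c, 4.00% of Notch a, 5.30% of Notch d and 27.3% of the 44 peaks of Notch b. Of regions with a Notch b peak, 11 of 12 (91.7%) were in at least 2 LAG-1 libraries. The shares were 12 of 16 (75%) for Notch d, 18 of 33 (54.5%) for Notch a and 99 of 203 (48.8%) for Notch c. The order thus ran opposite to list length, from 44 peaks in Notch b to 8261 in Notch c. These shares include regions that other Notch libraries also held. Where a library was the sole Notch library, the shares of Notch a, c and d lay close together. They were 13 of 27 (48.1%) for Notch a, 90 of 192 (46.9%) for Notch c and 4 of 8 (50%) for Notch d. For Notch b it was 4 of 4.

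The 52 regions with a peak of Notch a, b or d held 32 (61.5%) in at least 2 and 24 (46.2%) in at least 3 LAG-1 libraries. The 192 with Notch c alone held 90 (46.9%) and 36 (18.8%). Median LAG-1 folds of the former were 8.17, 10.6, 5.5 and 11.5 in LAG-1 a, b, c and e. Those of the latter were 7.45, 6.16, 4.88 and 6.41. In all 4 LAG-1 libraries the regions with Notch a, b or d were higher. The 52 include all 13 regions in at least 2 Notch libraries, and the 192 include none. Among the 13 are S1 to S11, which were chosen for at least 2 LAG-1 libraries. The identity and the number of Notch libraries therefore cannot be told apart in this comparison.

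Over all shared regions the LAG-1 fold was slightly above that of LAG-1 regions without Notch. Medians were 7.58 against 6.13 in LAG-1 a, 6.82 against 5.9 in b, 4.92 against 4.7 in c and 7.42 against 6.98 in e. The mean log2 ratio of medians was 0.17 ± 0.11 (SD, n = 4), with shared regions higher in 4 of 4 libraries. It was 0.54 without Notch c. At the 192 shared regions with Notch c alone, median LAG-1 folds were 7.445, 6.16, 4.88 and 6.405 in a, b, c and e. These were above LAG-1 regions without Notch in a, b and c and below them in e. Over all shared regions the size of the mean log2 ratio depended on the measure. It was 0.08 ± 0.06 for the fold over the local 10 kb, higher in 4 of 4, and 0.07 ± 0.08 for the normalized tag count, within its spread and higher in 3 of 4 (SD, n = 4 each). By tag count LAG-1 b was lower at shared regions, with medians of 197.6 and 200.7. Within regions of 3 and of 4 LAG-1 libraries the shared regions were higher in 4 of 4 libraries, and within those of 1 and of 2 in 2 of 4.

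For Notch the difference also depended on the measure. Median folds over input at shared regions and at Notch regions without LAG-1 were 4.64 and 4.51 in Notch a, 4.65 and 4.49 in b, 5.37 and 5.45 in c, and 5.13 and 4.55 in d. The mean log2 ratio was 0.06 ± 0.08 (SD, n = 4), smaller than its spread between libraries, with 3 of 4 libraries positive. For the fold over the local 10 kb it was 0.13 ± 0.12 and positive in 4 of 4, and for the normalized tag count 0.31 ± 0.35 and positive in 3 of 4 (SD, n = 4 each). Notch c was lower at shared regions by fold over input and higher by both other measures. The highest tag count ratio, a log2 of 0.749, was that of Notch b, with 12 peaks at shared regions and 12 without LAG-1. The clonal fold, the caller's measure of tags stacked on few positions, was lower at shared regions in 4 of 4 Notch libraries. It was 0.96 against 1.21 in Notch b, the largest difference by log2 ratio, and 1.15 against 1.31 in Notch c, the smallest. In LAG-1 libraries it was also lower in 4 of 4, by a log2 mean of -0.06 ± 0.08 (SD, n = 4), which is within the spread.

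Peaks of the controls were set beside those of Notch at all 2675 autosomal LAG-1 regions, with and without a control peak. The share with a Notch peak was higher at regions in 4 LAG-1 libraries than at regions in 1, in each Notch library. It was 1.10% in 1 and 10.3% in 4 LAG-1 libraries for Notch a, and 0.122% and 7.61% for Notch b. It was 7.20% and 17.9% for Notch c, and 0.427% and 7.61% for Notch d. The same held for several controls. Myc control a stood at 6.28% and 25.5%, Myc control c at 5.06% and 19.6%, Flag control b at 0.305% and 5.98%, and Flag control a at 0.244% and 2.17%. Flag control c and Myc control d did not exceed 0.544% at regions in 4 LAG-1 libraries. The long Myc control lists thus reached higher shares there than any Notch list, and Flag control b, with 45 peaks, came near Notch b, with 44.

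**Figure D3:**
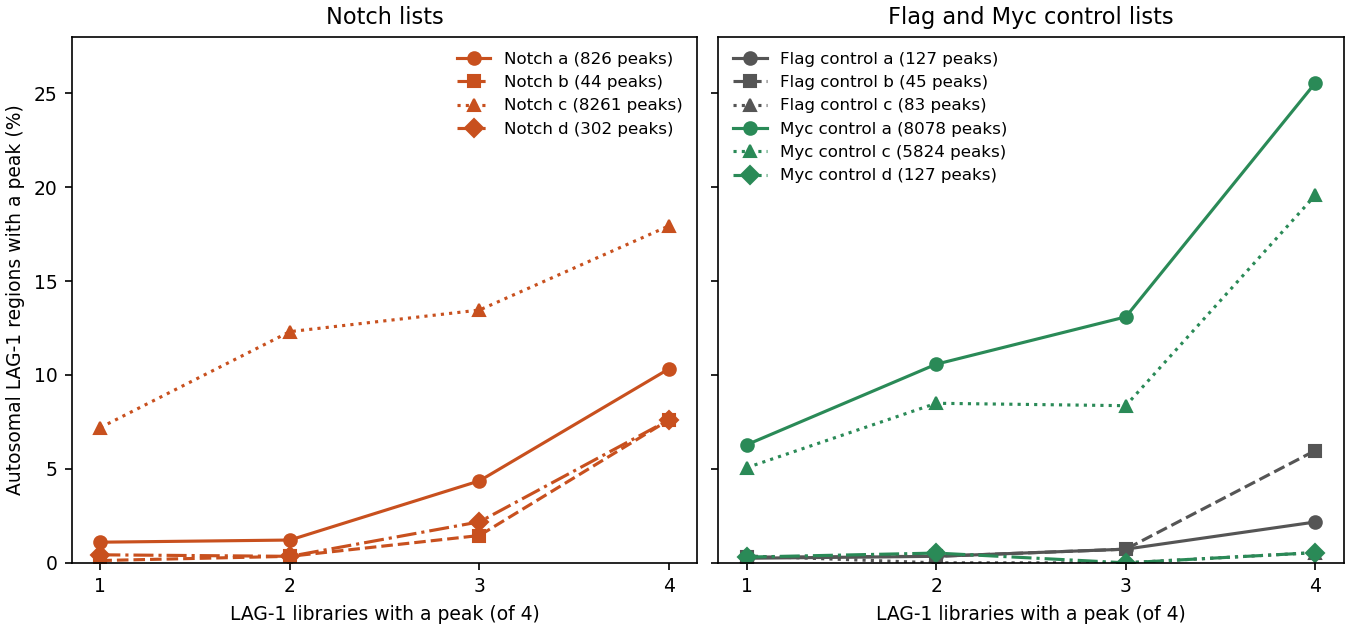
Share of autosomal LAG-1 regions (vertical axis, percent) with a peak in each Notch list (left) and each control list (right), by the number of LAG-1 libraries that hold the region (horizontal axis); each line is 1 library. At regions in 4 LAG-1 libraries the Notch lists lie between 7.61% and 17.9%, and the controls between 0.543% and 25.5%.

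A Notch library not used in choosing the regions gave a further description. Each Notch library was set aside in turn, and control-free LAG-1 regions were chosen with the others. With a peak in another Notch library, 6 of 217 (2.76%) had one in Notch a, against 27 of 2038 (1.32%) without. For Notch b these were 8 of 240 (3.33%) and 5 of 2016 (0.248%). For Notch c they were 11 of 52 (21.2%) and 195 of 2206 (8.84%), and for Notch d 8 of 236 (3.39%) and 8 of 2019 (0.396%). The difference was positive in 4 of 4 libraries, with a mean of 4.96 ± 4.96 percentage points (SD, n = 4), of which Notch c alone gave 12.3. Exact Clopper-Pearson 95% intervals, which cover counting error only, were 1.02% to 5.92% and 0.875% to 1.92% for Notch a and 11.1% to 34.7% and 7.69% to 10.1% for Notch c. Each share rests on 1 library, and the intervals are no test of presence. Left out altogether, Notch c moved the mean to 14.2 ± 1.72 points (SD, n = 3). Without Notch a it was 12.4 ± 15.5 points (SD, n = 3), smaller than its spread.

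With a LAG-1 library set aside, control-free Notch regions with a peak in another LAG-1 library had one in LAG-1 a in 55 of 240 (22.9%). The values were 108 of 220 (49.1%) for LAG-1 b, 50 of 202 (24.8%) for LAG-1 c and 110 of 186 (59.1%) for LAG-1 e. Without another LAG-1 peak the shares were 0.0576%, 0.388%, 0.630% and 0.857%. The mean difference was 38.5 ± 17.8 points (SD, n = 4). Each of the 4 differences, 22.9 to 58.3 points, was above the highest of the Notch libraries, 12.3 points. List length limits such shares, since a list cannot mark more regions than it has peaks. Notch b listed 44 peaks for 240 regions with another Notch peak, while the LAG-1 lists held 505 to 1965 peaks. The comparison therefore does not rank the proteins, and the part of list length in it was not tested.

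Control libraries set aside in the same way also favoured regions with both proteins. Myc control a had a peak at 28 of 272 (10.3%) of them, against 4.90% of regions with 1 protein and 7.84% of those with LAG-1 alone. Myc control c had 19 of 263 (7.22%), against 3.41% and 6.03%. Flag control b had 3 of 247 (1.21%), against 0.0558% and 0.199%. Flag control a, Flag control c and Myc control d had 1 region each (0.408%). With LAG-1 alone their shares were 0.248%, 0.0497% and 0.199%. The difference from regions with 1 protein, most of them Notch alone, was positive in 6 of 6 controls. Its mean was 1.88 ± 2.19 points (SD, n = 6), smaller than its spread.

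**Figure D4:**
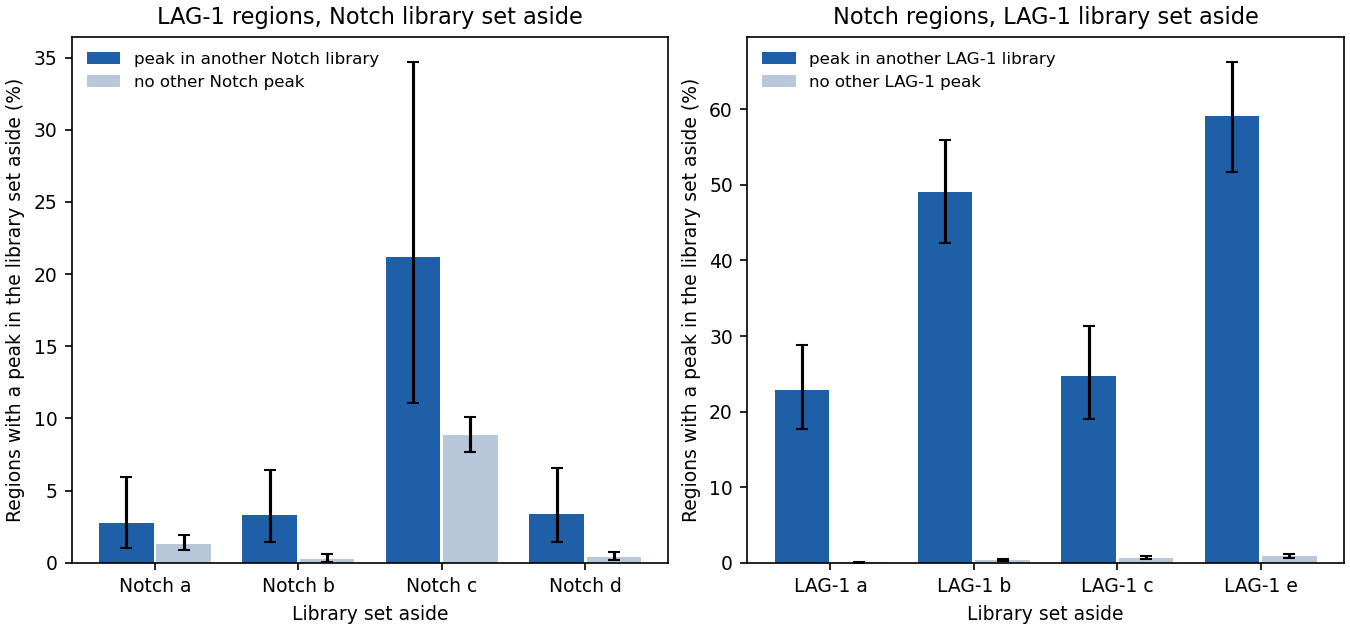
Share of regions (vertical axes, percent) with a peak in the library set aside (horizontal axes), for control-free LAG-1 regions (left) and Notch regions (right), dark where another library of the same protein had a peak and pale where none had. Error bars are exact Clopper-Pearson 95% intervals; the dark bar is the higher in all 8 libraries, from 2.76% in Notch a to 59.1% in LAG-1 e.

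Peak centres of the 2 proteins lay close together at recurrent regions and less so elsewhere. Over all 244 the distance between mean centres had a median of 92 bp (range 0 to 402 bp), and 69 regions (28.3%) were within 50 bp. At S1 to S11 the median was 24.8 bp, and 9 of 11 were within 50 bp. At the 120 regions in 1 library of each, it was 110 bp, and 22 (18.3%) were within 50 bp. The recurrent regions average over more peaks, which by itself narrows a distance of means. Taken over single pairs of a LAG-1 and a Notch peak, the median was 37 bp at S1 to S11 and 79 bp over all shared regions. Pairs of LAG-1 libraries in shared regions had a median of 32 bp, and pairs of Notch libraries 54 bp.

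The distance was also taken by Notch library. It was 73.8 bp at the 52 regions with Notch a, b or d, of which 23 (44.2%) were within 50 bp. At the 192 with Notch c alone it was 98.2 bp, with 46 (24.0%) within 50 bp. The 52 include all of S1 to S11, whose median was 24.8 bp, and the 192 include none of them. The part of S1 to S11 in this difference was not tested. For comparison, 336 autosomal regions with a LAG-1 and a Myc control peak but no Notch peak had a median distance of 88.1 bp. By these medians, shared regions resting on Notch c alone were no closer than LAG-1 regions met by a Myc control peak. S1 to S11 were closer than both, but their mean centres average over more peaks. Their single-pair median was 37 bp, and no single-pair value is given for these other sets. Peak sizes were unlike, at 252 bp in Notch c and 156, 202 and 234 bp in Myc control a, c and d. Wider peaks can overlap at larger distances, and the part of peak size was not tested.

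**Figure D5:**
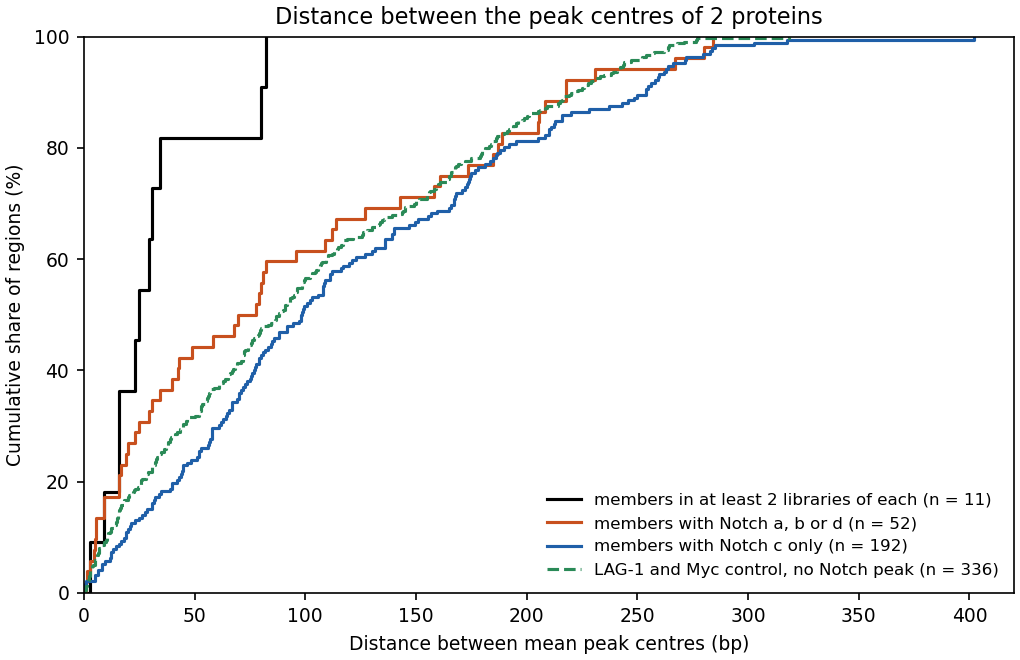
Cumulative share of regions (vertical axis, percent) by the distance between mean peak centres in bp (horizontal axis), for 3 sets of shared regions and for regions of LAG-1 with a Myc control peak. The 11 recurrent regions all lie within 82.2 bp, while the medians of the other sets are 73.8, 98.2 and 88.1 bp. The 11 are also part of the set with Notch a, b or d.

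Shared regions were spread over the 5 autosomes. There were 47 on I, 58 on II, 34 on III, 48 on IV and 57 on V. Relative to chromosome length, approximated by the end of the last listed peak, this was 3.12, 3.80, 2.47, 2.74 and 2.72 regions per Mb. Of the 244, 108 (44.3%) lay between 25% and 75% of that length, against 51.6% of regions with LAG-1 alone and 43.4% with Notch alone. The median gap to the next shared region was 222806 bp, and 8 of 239 gaps were under 10 kb. A control peak lay within 1 kb of 69 (28.3%), close to the 27.3% for LAG-1 alone and 27.0% for Notch alone.

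Just outside the rule lay 75 autosomal regions with peaks of both proteins and of at least 1 control, so 76.5% of 319 were free of control peaks. Of all autosomal LAG-1 regions, with or without Notch, 2255 of 2675 were free of them, a larger share. In 55 of the 75 exactly 1 control had a peak, which was Myc control a in 28 and Myc control c in 20. Of these 55, 4 were in at least 2 libraries of each protein. At chrV:11770127-11770490 folds were 37.2, 63.2, 65.3 and 49.95 in Notch a to d and 23.1, 29.3, 14.9 and 35.5 in LAG-1 a, b, c and e, beside 5.34 in Myc control c. The region was thus high in every library of both proteins, while LAG-1 c was the lowest LAG-1 and Notch a the lowest Notch library.

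At chrIII:7854454-7854831 the mean was 18.5 ± 6.47 in 4 LAG-1 and 4.81 ± 0.305 in 3 Notch libraries (SD), beside 5.49 in Myc control a. At chrIV:654738-655106 it was 21.6 ± 7.82 in 4 and 4.63 ± 0.270 in 3 (SD), beside 4.9. At both, LAG-1 e was the highest and LAG-1 c the lowest of the LAG-1 libraries. At chrI:6837955-6838332 the folds were 6.89 and 7.78 in LAG-1 b and c, 4.8 and 4.19 in Notch a and c, and 12.7 in Myc control a. On X, 39 regions met the same conditions and are not among the 244.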

How the data were processed

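Peak lists of 14 immunoprecipitation libraries were analysed, and the inputs entered through the authors' peak calling. The tools named in the submitters' processing notes are CASAVA 1.8, Bowtie and HOMER, with build ce10, and no other version is stated there. The authors called peaks in each library against its own input, at 4 times the input and 4 times the local 10 kb or more and with a clonal fold of at most 2, per the file headers. Control lists were called more strictly, at a false discovery rate of 0.001 against 0.01 for both targets, per the file headers. In 12 lists the input was scaled to match, and in 2 (LAG-1 a and b) the immunoprecipitate was, per the file headers.

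The deposited normalized tag count is a signal per 10 M tags. Deposited total tags are tag counts, except in LAG-1 a and b, where they were scaled. Fold over input, local fold and clonal fold are deposited ratios, the focus ratio a deposited fraction, and the peak score and p-value are also the authors' caller's values, and neither was used here as a result.

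Peaks were merged with Python 3.11.15 and numpy 2.4.6, and the merging and the selection were tested on simulated data. Intervals were computed with scipy 1.17.1. Centres are peak midpoints. Replicates are described as biological for Notch and the controls, and for LAG-1 only as replicates, whose spread may be technical. The members, the lists compared and the rules for naming regions were chosen with earlier results of these data known. Named were all regions in at least 2 libraries of both proteins, the 5 best by mean rank of fold among those in 4 LAG-1 and 1 Notch and among those in 1 of each, and those just outside with 1 control peak and at least 2 libraries of each protein. Alternatives were a stricter fold, other merging rules, a common Poisson threshold, other control sets, a focus ratio minimum, other measures of height and leaving out libraries.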

Additional observations from a re-analysis of the deposited data

Results flagged for a closer look

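Of 24 groups of samples examined for a value far from the others, 5 stood out, and chance alone flags about 1 in 20. The groups share libraries, so the 5 are not independent, and their number was not tested against chance. Notch c held a peak in 203 of the 244 shared regions, far above the 12 to 33 of the other Notch libraries. Set aside in turn, Notch c also had the largest difference between regions with and without another Notch peak, 12.3 percentage points against 1.44 in the lowest library. At chrI:2639643-2640018 (S3) the fold of LAG-1 c, 5.78, lay far below the other three LAG-1 libraries. At chrIV:7389717-7390135 LAG-1 c was again far below the others, at 6.76. At chrIV:796496-797032 the fold of LAG-1 a, 24.6, lay far above the other three, which reached 9.29 at most. Its normalized tag count did not stand out there, at 217 against 284.9, 147.9 and 268 in LAG-1 b, c and e.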

How the results depend on the processing

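No mean difference in points and no mean log2 ratio compared here changed sign under any alternative run. Counts and the centre distance cannot change sign. The count in at least 3 libraries of each protein changed by a factor of over 1.5 in 8 of 23 alternatives. Among single libraries 2 changed sign when the measure of height changed: LAG-1 b with normalized tag counts, and Notch c with those or with the local fold. With a fold of at least 6, 66 shared regions remained, with 5 in at least 2 libraries of each protein. The mean difference for a Notch library set aside was then 13.1 ± 16.3 points (SD), smaller than its spread. Without the 3 lists of over 5000 peaks, there were 70 shared regions, the differences were 18.4 points for Notch and 59.97 for LAG-1 libraries set aside, and the log2 ratio of LAG-1 folds was 0.61. Against the Flag controls alone, 18 regions were in at least 2 and 10 in at least 3 libraries of each protein. Requiring at least 2 libraries of the other protein gave 72.2 points for LAG-1 libraries set aside and a log2 ratio of LAG-1 folds of 0.93. With normalized tag counts in place of folds the log2 ratio for Notch was 0.31, and at regions in at least 2 libraries of each protein the centre distance was 24.8 bp. Other merging rules, a common Poisson threshold, the Myc controls alone, no control peak within 1 kb and a focus ratio of at least 0.7 gave 169 to 268 shared regions. The cause of these shifts was not tested.

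Leaving out 1 library at a time gave 52 to 272 shared regions, 7 to 14 in at least 2 and 2 to 7 in at least 3 libraries of each protein. The differences for libraries set aside were 4.76 to 14.2 points for Notch, 35.0 to 53.3 for LAG-1 and 1.67 to 2.33 for controls. The log2 ratios of folds were 0.12 to 0.54 for LAG-1 and 0.02 to 0.09 for Notch, and the centre distance was 78.7 to 96.5 bp.

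No paired analysis was run, as no test was made. The LAG-1 motif in shared regions was planned and not run, because it needs a ce10 genome. A peak is absent from a list when it misses the caller's thresholds, so absence in a library of few peaks or tags does not show that a protein was not bound, and absence in a control was judged at a stricter false discovery rate.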
